A study of Mus musculus with 13 samples.

Results

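A set of 10 genes that encode chemokines, inflammatory cytokines and IκB proteins of the NF-κB pathway were followed in single sorted microglia from mice on control diet or high-fat diet (HFD). They were taken by name and are 10 of the 17280 genes that the plate tables shared with the filtered count table. The chemokine genes were Ccl2, Ccl3, Ccl4 and Ccl12, the cytokine genes were Il1a, Il1b, Tnf and Il6, and the IκB genes were Nfkbia and Nfkbiz. All 10 were found in the tables, and each had at least 1 unique molecular identifier (UMI, the random tag that marks 1 captured transcript) in some cell.

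The study asked how microglia respond to a diet rich in fat. Unmodified male C57BL/6J mice received standard chow, or HFD with 60% fat, and CD45lo CD11b+ cells were sorted singly into 13 plates of 192 wells and sequenced by CEL-Seq2, a plate method that counts UMIs from 1 end of each transcript. The labels name the tissue as brain, and the study's methods describe the sorted cells as microglia of the hypothalamus, the region that controls feeding. Of the 2496 wells, 1617 held at least 1500 transcripts over the 17280 genes and are called cells here. The table of wells gave each cell its diet, HFD length and replicate identifier, and an identifier need not stand for 1 mouse. There were 722 control cells of 19 replicates on 12 plates, 161 cells of 6 replicates after 1 day of HFD, 121 of 4 after 3 days, 172 of 6 after 1 week, 128 of 3 after 4 weeks, 82 of 2 after 9 weeks and 231 of 5 after 16 weeks. The treatment text in the labels describes only the HFD of 3 days, so the other lengths rest on the table of wells. All mice shared the genotype, and all cells passed the same sort. Cell names also carry a number of weeks whose meaning the sources used here do not state, and it went with HFD length. Among the sums of cells used below it was 9 for 1 day, 14 for 3 days, 14 or 9 for 1 week, 14 or 4 for 4 weeks, 24 for 9 weeks and 24 or 16 for 16 weeks, while control sums carried 9, 14, 16, 24 or, in 1 sum, both 4 and 10. Plate 13 held control sums of 14 and of 24.

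Chemokines are secreted proteins that draw leukocytes along a gradient, and CCL2 and CCL12 act on CCR2, a receptor of monocytes. Interleukin 1, TNF and interleukin 6 are cytokines that spread an inflammatory signal, and microglia are an early source of them in the brain. NF-κB is a transcription factor held in the cytoplasm by IκBα, the product of Nfkbia, and its activation induces chemokine and cytokine genes together with Nfkbia itself. Microglia also switch on immediate early genes and chemokine genes when they are handled and dissociated.

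The stretches before the starts of 4 members are shown because they differ in the motifs of the factors that drive inflammatory genes. Sequences came from the RefSeq promoter table (GRCm38.p6), which held 7 of the 10 members. Windows from 250 bases before to 50 bases after the start were searched on both strands for the NF-κB consensus, for the AP-1 motif TGANTCA and for the Egr motif GCGNGGGCG. The NF-κB consensus was present in 8.46% of the 32851 promoters of the table, AP-1 in 7.81% and Egr in 5.55%. Capitals mark the matches in the 250 bases before each start, and no 2 matches overlapped.
Nfkbia, chr12:55492648-55492897, minus strand: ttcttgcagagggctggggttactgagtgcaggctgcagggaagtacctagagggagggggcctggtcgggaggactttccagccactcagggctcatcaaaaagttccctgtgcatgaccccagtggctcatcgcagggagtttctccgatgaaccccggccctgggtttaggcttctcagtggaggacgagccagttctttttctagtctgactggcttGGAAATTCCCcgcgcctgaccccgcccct
Il6, chr5:30012864-30013113, plus strand: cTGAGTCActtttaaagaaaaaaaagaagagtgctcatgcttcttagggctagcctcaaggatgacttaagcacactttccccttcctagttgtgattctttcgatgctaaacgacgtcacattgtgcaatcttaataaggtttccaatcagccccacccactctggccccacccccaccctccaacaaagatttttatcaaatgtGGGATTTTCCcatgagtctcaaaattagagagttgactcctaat
Il1a, chr2:129309973-129310222, minus strand: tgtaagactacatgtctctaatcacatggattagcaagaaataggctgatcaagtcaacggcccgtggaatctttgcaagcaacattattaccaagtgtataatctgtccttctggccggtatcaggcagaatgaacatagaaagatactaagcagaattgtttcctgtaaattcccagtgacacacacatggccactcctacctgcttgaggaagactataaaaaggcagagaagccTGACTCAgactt
Ccl3, chr11:83649379-83649628, minus strand: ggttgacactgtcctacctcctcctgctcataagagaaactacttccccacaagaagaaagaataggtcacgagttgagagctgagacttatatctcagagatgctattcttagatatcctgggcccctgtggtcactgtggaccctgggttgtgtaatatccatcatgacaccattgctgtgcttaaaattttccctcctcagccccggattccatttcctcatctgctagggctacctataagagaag
The NF-κB match of Nfkbia, GGAAATTCCC, began 29 bases before the start, and that of Il6, GGGATTTTCC, began 44 bases before it. Il6 also held an AP-1 match, TGAGTCA, 249 bases before its start, and Il1a held TGACTCA 12 bases before its start. Ccl3, Ccl12, Il1b and Tnf had no match in these windows, which says only that these letters were not in them.

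In the GENCODE annotation of GRCm38, the build the submitters name as mm10, all 10 members are protein-coding genes. The 4 chemokine genes lie on chromosome 11, with Ccl3 (83647844 to 83649355, minus strand) 13.2 kb from Ccl4 (83662584 to 83664683, plus strand) and Ccl2 (82035571 to 82037453, plus strand) 64.4 kb from Ccl12 (82101845 to 82103400, plus strand). Il1a (129299610 to 129309972) and Il1b (129364570 to 129371139) are 54.6 kb apart on the minus strand of chromosome 2. Tnf lies on chromosome 17 (35199381 to 35202007), Il6 on chromosome 5 (30013114 to 30019981), Nfkbia on chromosome 12 (55489410 to 55492647) and Nfkbiz on chromosome 16 (55811375 to 55838899). No stretch of 30 bases was shared between transcripts of any 2 members, so their counts do not come from shared reads of that length.

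The median cell held 2830 UMIs, and the plate medians ran from 2186 to 4667. Of the cells, 99.8% held at least 3 UMIs of 10 microglia markers, and 62 cells (3.83%) also held at least 3 UMIs of the markers of another cell type, such as 24 with markers of oligodendrocytes, 19 with markers of border-associated macrophages and 17 with markers of monocytes. The summed monocyte markers were at 24.1 counts per 1000000 UMIs in control cells, 198 after 3 days, 174 after 1 week and 447 after 4 weeks. Those of border-associated macrophages were at 29.6, 118, 92.0 and 110 in the same order. The 1 neutrophil marker found was at 0 in control cells, 24 after 3 days, 18.4 after 1 week and 2034 after 4 weeks. Only 2 of the 1617 cells held at least 3 UMIs of it. After 1 day, 9 weeks and 16 weeks the monocyte markers were at 10.2, 19.4 and 32.4, and those of border-associated macrophages at 7.67, 32.3 and 31.1. The HFD lengths with the higher values were those with cells on plates 4 and 5. The part of cells with other types' markers in the levels below was not tested, except by the fit without them. All 13 plates used the same 192 barcodes by design.

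Nfkbia was the most widely detected member and Il1b the least. At least 1 UMI of Nfkbia was present in 591 of 1617 cells (36.5%, exact binomial 95% interval 34.2 to 39.0). Il1a followed with 304 cells (18.8%, 16.9 to 20.8), Ccl12 with 243 (15.0%, 13.3 to 16.9) and Nfkbiz with 196 (12.1%, 10.6 to 13.8). The other 6 were rare. Ccl3 and Il6 were each found in 75 cells (4.64%, 3.67 to 5.78), Ccl4 in 55 (3.40%, 2.57 to 4.40), Ccl2 in 44 (2.72%, 1.98 to 3.64), Tnf in 38 (2.35%, 1.67 to 3.21) and Il1b in 22 (1.36%, 0.85 to 2.05). The intervals cover counting error only. Those of Ccl12 and Nfkbiz overlapped, as did those of neighbours among the 6 rare members. The intervals of Il1a and Ccl12 met at 16.9% to the digits given. Gaps lay between the intervals of Nfkbia and Il1a and of Nfkbiz and Ccl3.

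Detection followed depth. With each cell thinned to 1500 UMIs, the shares were 22.9% for Nfkbia, 9.83% for Il1a, 8.72% for Ccl12, 5.69% for Nfkbiz, 2.66% for Ccl3, 2.60% for Il6, 1.98% for Ccl2, 1.92% for Ccl4, 1.24% for Tnf and 0.68% for Il1b. In the 809 deeper cells Nfkbia was detected in 41.8%, against 31.3% of the 808 shallower cells, and Tnf in 3.71% against 0.99%.

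**Figure D1:**
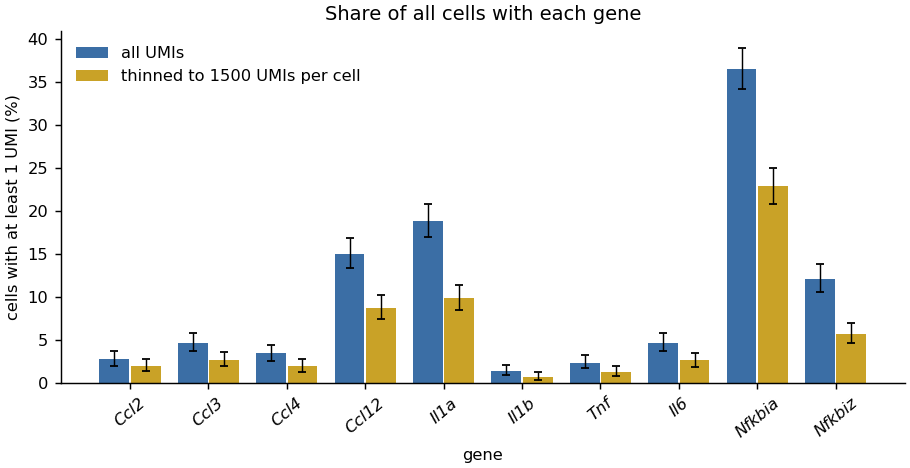
Share of cells (percent) with at least 1 UMI of each member, at full depth and after each cell was thinned to 1500 UMIs, over all 1617 cells; bars mark exact binomial 95% intervals, which cover counting error only. Nfkbia stands highest at 36.5% and 22.9%, and Il1b lowest at 1.36% and 0.68%.

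The members differed in how their transcripts were spread over cells. Ccl4, which encodes the chemokine MIP-1β, had 168 UMIs, of which the 10 highest cells held 70.8% and the highest cell alone 27.4%. Il1b, which encodes interleukin 1β, had 46 UMIs, of which the 10 highest cells held 73.9% and the highest cell 34.8%. Ccl3, which encodes MIP-1α, had 165 UMIs with 54.5% in 10 cells, and Ccl2, which encodes the monocyte attractant MCP-1, had 85 UMIs with 50.6% in 10 cells. Nfkbia (1057 UMIs) and Il1a (396 UMIs, encoding interleukin 1α) were spread widely, with 12.6% and 11.6% in their 10 highest cells. Ccl12, a CCR2 ligand of mice, lay between with 27.6% of 583 UMIs. The shares of the 10 highest cells were 34.9% of 43 UMIs for Tnf and 25.5% of 94 for Il6. A share for a gene with few UMIs is bound to be large, so Tnf, Il1b and Il6 cannot be ranked against Nfkbia on it.

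**Figure D2:**
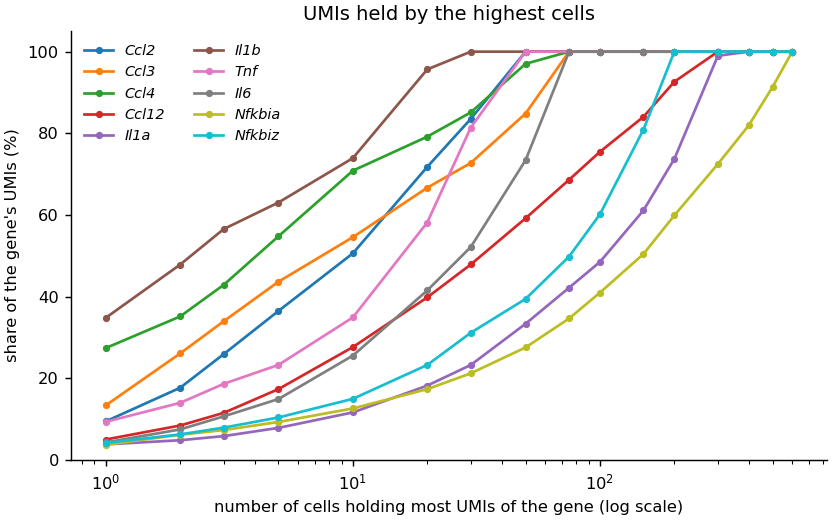
Cumulative share of each member's UMIs (percent) held by its highest cells, against the number of cells in order of their UMIs. The 10 highest cells held 70.8% of the Ccl4 UMIs and 11.6% of the Il1a UMIs.

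Most cells held few members. No member was detected in 598 cells (37.0%), 1 in 583, 2 in 308, 3 in 88, 4 in 27, and 5 or more in 13. Of these 13 cells, 10 were control cells, and 0 carried markers of another cell type. The most members in a cell were 7, in 3 cells. A control cell of replicate MG M2 on plate 12 held 26 UMIs of Nfkbia, 16 of Il1b, 15 of Il1a, 10 of Nfkbiz, 9 of Ccl4, 2 of Tnf and 1 of Il6 among 3151 UMIs, but none of Ccl3. A control cell of WT M1 on plate 7 held 13 of Ccl3, 13 of Ccl4, 8 of Ccl12, 3 of Nfkbia, 2 of Il1a, 2 of Nfkbiz and 1 of Ccl2. A cell of WT M16 after 1 day of HFD held the same 7 members, with 8 UMIs of Ccl3, 13 of Ccl4, 5 of Nfkbia and 4 of Il1a. Cells with many members therefore occurred in control mice and on HFD.

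Ccl3 and Ccl4 were found in the same cells more often than their shares alone would give. After thinning to 1500 UMIs, 7 of 43 cells with Ccl3 also held Ccl4 (16.3%, exact 95% interval 6.81 to 30.7), against 24 of 1574 cells without Ccl3 (1.52%, 0.98 to 2.26). The share was higher in Ccl3 cells on 4 of the 5 plates with at least 3 such cells, which were plates 1, 6, 8 and 13, and it was 0 of 4 on plate 12. Seen from Ccl4, 7 of 31 cells held Ccl3 (22.6%), against 2.27% of the cells without Ccl4. The product of the shares on each plate, summed over plates, gives 1.17 cells with both genes. Without thinning, 11 of 75 cells with Ccl3 held Ccl4 (14.7%, against 2.85%), and the share was higher in Ccl3 cells on 6 of 11 plates and lower on 5. In the 5 cells with the most Ccl3, the UMIs of Ccl3 and Ccl4 were 22 and 46 (control WT M13), 21 and 11 (1 week MG M13), 13 and 13 (control WT M1), 8 and 13 (1 day WT M16), and 8 and 3 (control L1). The median full depth of the 43 cells with Ccl3 after thinning was 2651 UMIs, against 2837 in the others, while that of the 75 cells with Ccl3 at full depth was 2981, against 2816.5. These values describe cells that share plates and replicates, and carry no test.

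Ccl2 was also found at a higher pooled share in cells with Ccl3 or Ccl4, from 5 cells each. It was present in 5 of 43 thinned Ccl3 cells (11.6%, against 1.72%) and in 5 of 31 Ccl4 cells (16.1%, against 1.70%). Within plates, its share in Ccl3 cells was higher on 2, lower on 2 and equal on 1, and its share in Ccl4 cells was higher on 2 and lower on 2. Ccl2 and Ccl12, both ligands of CCR2, shared 11 cells where the plate shares give 3.11, and Ccl12 and Il1b shared 5 where they give 1.01. Other pairs lay below, such as Ccl12 and Il6 with 0 cells against 3.82 and Il6 and Nfkbia with 7 against 9.73. These 4 of the 45 pairs were named after their values were seen. For the other members the pooled share was higher in Ccl3 cells except for Tnf, but the plates did not all go that way. Nfkbia was present in 32.6% of Ccl3 cells against 22.6%, Il1a in 6 of 43 against 9.72%, Ccl12 in 11.6% against 8.64%, Nfkbiz in 9.30% against 5.59% and Il6 in 4.65% against 2.54%. Il1b was in 2.33% against 0.64%. Within the 5 plates, the share in Ccl3 cells was higher on 3 and lower on 2 for Nfkbia and Il1a, higher on 2 and lower on 3 for Ccl12, higher on 1 and lower on 4 for Nfkbiz and Il6, and higher on 1 and lower on 2 for Il1b. Tnf was in 0 of the 43 Ccl3 cells, for which the exact 95% interval reached 8.22%, against 1.27% of the others. At full depth it was in 3 of 75 Ccl3 cells (4.0%) against 2.27%. In Ccl4 cells Nfkbia reached 38.7% (against 22.6%), Il1a 19.4% (against 9.65%) and Ccl12 19.4% (against 8.51%), with Ccl12 and Nfkbia higher on 3 of 4 plates and Il1a on 2.

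Immediate early genes, transcribed within minutes of a stimulus, were mostly at a higher pooled share in Ccl3 cells, while the plates were divided for most of them. Egr1 was detected in 16.3% of thinned Ccl3 cells against 4.26% of the others, and in 19.4% of Ccl4 cells against 4.29%. Fos was in 25.6% of Ccl3 cells against 10.9%, Atf3 in 11.6% against 2.48%, and Zfp36, which encodes an mRNA-decay protein, in 44.2% against 27.1%. Of the 16 genes, only Ier5 was at a lower pooled share, in 25.6% of Ccl3 cells against 27.3%. At least 1 of the 16 was in 97.7% of Ccl3 cells against 86.8%. Within the 5 plates compared, the share in Ccl3 cells was higher on 5 for Zfp36, on 3 for Egr1 and Atf3, on 2 for Ier5, and on 1 for Fos, Ier3 and Dusp1. The level of Fos ran from 2.7 counts per 1000000 UMIs on plate 13 to 857 on plate 1. Their part in the co-detection of Ccl3 and Ccl4 was not tested.

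**Figure D3:**
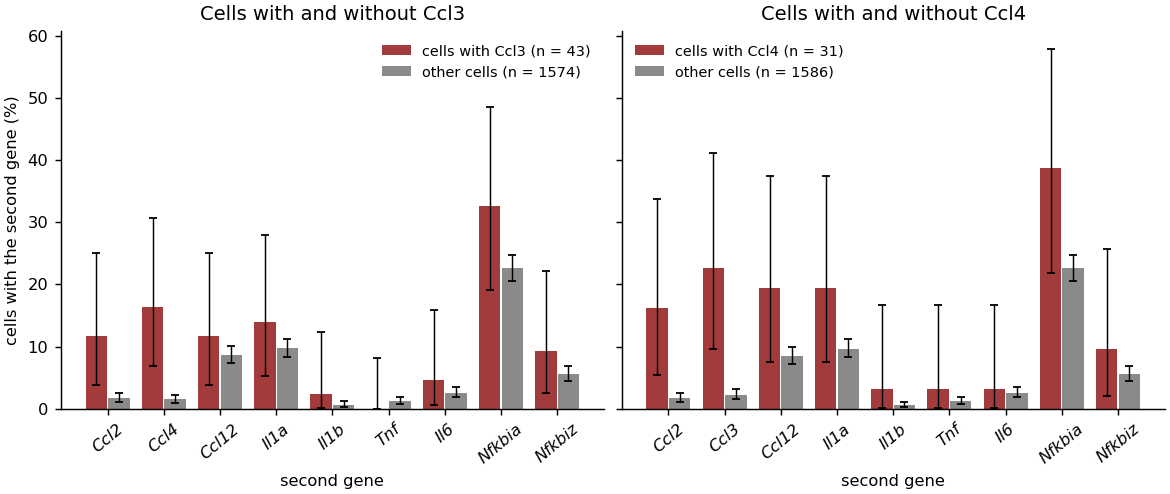
Share of cells (percent) with each other member among cells with Ccl3 or Ccl4 and among cells without it, after thinning to 1500 UMIs, with exact binomial 95% intervals for counting error. Ccl4 was in 16.3% of Ccl3 cells against 1.52% of the others, and Ccl2 in 16.1% of Ccl4 cells against 1.70%.

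For the diets, the UMIs of a replicate's cells were added up within each plate, where it had at least 5 cells there. This gave 68 sums of 22768 to 219146 transcripts, which were 28 control sums and 6, 6, 7, 5, 6 and 10 sums after 1 day, 3 days, 1 week, 4 weeks, 9 weeks and 16 weeks. Levels are a gene's counts per 1000000 transcripts of a sum (CPM). They are not divided by gene length, since CEL-Seq2 counts 1 end of a transcript. In a sum, fewer cells with a gene and less RNA per cell cannot be told apart.

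Nfkbia was detected in most sums, and control and HFD sums overlapped at every length. Its level in control sums was 0 at the lowest, 160 at the median and 644 at the highest. The 6 sums of 1 day ran from 101 to 248 (median 224), those of 3 days from 0 to 193 (median 103), and those of 1 week from 87.7 to 262 (median 162). The 5 sums of 4 weeks ran from 140 to 556 (median 222), those of 9 weeks from 128 to 300 (median 189), and those of 16 weeks from 53.4 to 382 (median 212). The 3-day replicates were at 94.9 (MG M17), 111 (MG M18), 152 (MG M24) and 48.1 (MG M25) CPM, all 4 below the median of the control sums. On plate 13 the 3-day sums were at 94.9 and 111, below all 4 control sums there (178 to 248), while on plate 4 they were at 124 and 75.7 beside a control sum of 7 cells at 0. At full depth, Nfkbia was detected in 32.5% of control cells, 26.4% of 3-day cells and 51.5% of 16-week cells. The shares expected over all draws of 1500 UMIs per cell were 20.8%, 12.5% and 34.1%. The draw used above gave 21.2% (18.3 to 24.4), 7.44% (3.46 to 13.7) and 35.5% (29.3 to 42.0), so it lay below the expectation at 3 days. The 3-day cells lay on plates 4, 5 and 13, and the deep plates 4, 5, 10 and 11 together gave 16.2% over all diets. The part of the plate in these shares was not tested.

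In the 556 CPM of the 4-week sum of MG M20 on plate 4, 39 of 46 Nfkbia UMIs came from 1 cell of 19711 UMIs. That cell held 7 UMIs of Ccr2, 536 of Cd74 and 374 of H2-Ab1, with 14 of the microglia marker Cx3cr1 and 0 of the microglia markers P2ry12 and Tmem119. Without it the sum was at 111 CPM. At 16 weeks the means were higher than control on 4 of 6 plates, with 370 against 157 on plate 2 and 382 against 246 on plate 3. Both of these rest on 1 HFD replicate, L4, and 1 control replicate.

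Nfkbiz, which encodes a nuclear IκB protein needed for Il6 induction, was lower in level. Its control sums ran from 0 to 301.5 CPM (median 40.5), and the HFD medians lay between 31.0 (1 day) and 49.6 (3 days). After 3 days its mean was above control on 2 of 2 plates. Of these, plate 4 held 1 control sum, of 7 cells and at 0, and on plate 13 the groups overlapped. After 1 day its mean was below control on 2 of 2 plates, and the groups overlapped on both. The highest control sum, MG M2 on plate 12, was at 107 without its highest cell.

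Ccl12 was the chemokine with the highest median level in control sums. These sums ran from 0 to 1246 CPM (median 74.0), with 1246 and 515 on plate 13. In the 1246 of MG M16, 29 of 30 UMIs came from 1 cell, and the sum without it was at 49.8. The sums of 1 day ran from 19.5 to 89.0 (median 47.8), those of 3 days from 13.6 to 223 (median 113), and those of 1 week from 32.3 to 295 (median 126). Those of 4 weeks ran from 0 to 103 (median 46.3), those of 9 weeks from 0 to 169 (median 30.2), and those of 16 weeks from 13.1 to 320.5 (median 135). Over all their plates, the 3 replicates of 4 weeks were at 46.3 (L2), 47.7 (MG M20) and 48.4 (MG M21), but MG M21 was at 103 on plate 4 and 0 on plate 5, and MG M20 at 60.2 and 23.4. Beside control cells of the same plate, the 4-week sums were lower on plate 1 (46.3 against 204) and higher on plate 4 (60.2 and 103 against the 7 control cells at 0). At 1 week Ccl12 was lower on 3 of 4 plates, and at 16 weeks higher on 4 of 6. Cells with markers of other types held 88 of its 583 UMIs (15.1%).

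**Figure D4:**
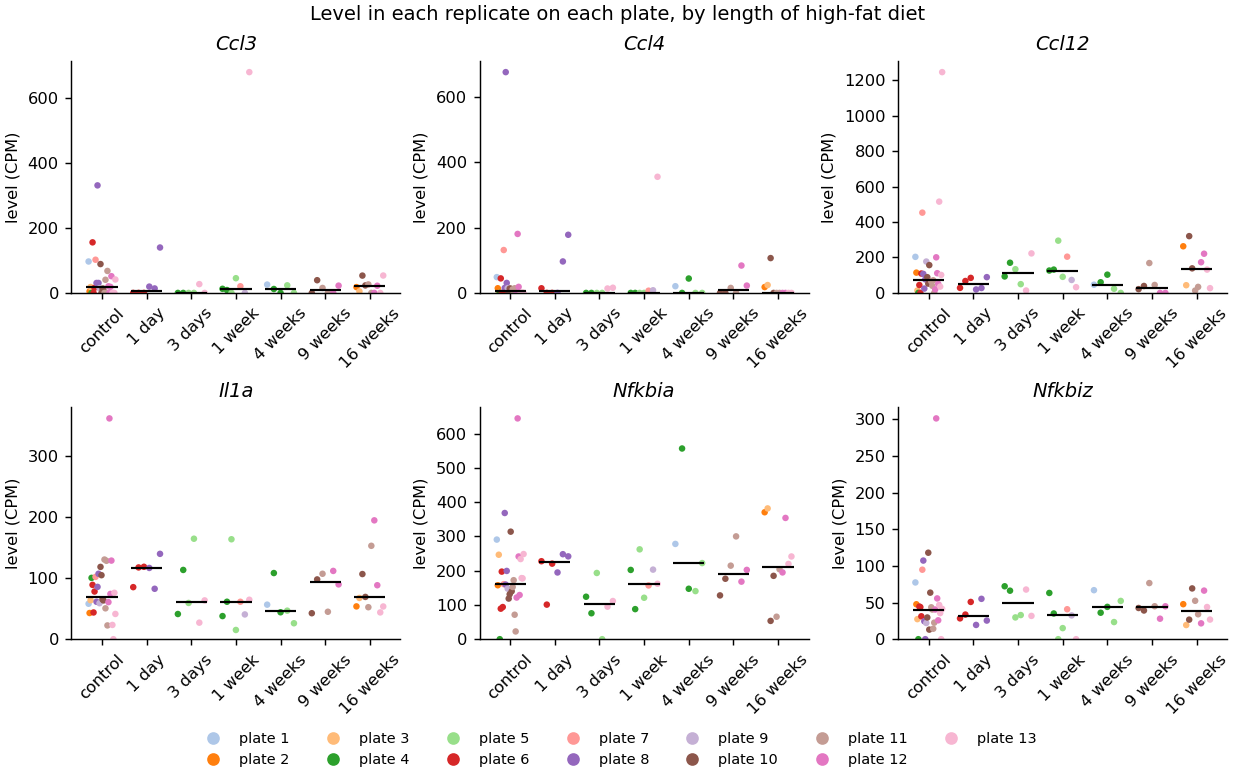
Level (CPM) of Ccl3, Ccl4, Ccl12, Il1a, Nfkbia and Nfkbiz in the 68 sums of cells per replicate and plate, by diet and HFD length, with points for sums, coloured by plate, and bars for medians. Control and HFD sums overlap in each panel, and single high sums such as Ccl12 at 1246 in control and Ccl3 at 681 after 1 week stand above the rest.

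Ccl3 and Ccl4 levels turned on single cells. Control sums of Ccl3 ran from 0 to 331.5 CPM (median 16.9, with 9 of 28 at 0) and those of Ccl4 from 0 to 677 (median 5.4, with 14 at 0). Both highest values belonged to WT M13 on plate 8, and without its highest cell they were 63.4 and 114. After 1 week, MG M13 on plate 13 was at 681 for Ccl3 and 356 for Ccl4, all from 1 cell of 12, and the other 6 sums had at most 45.4 of Ccl3. After 1 day WT M16 was at 140 and 178, or 39.6 and 13.2 without its highest cell. After 3 days 5 of 6 sums had no Ccl3 UMI, and the sixth, MG M17, was at 27.1. On the 2 plates with control sums beside them, the mean of Ccl3 after 3 days was 0 against 0 (plate 4) and 13.6 against 10.4 (plate 13), so it was lower on neither. The mean of Ccl3 was below control on 2 of 2 plates at 1 day and on 3 of 3 at 9 weeks, and the groups overlapped on each of these plates.

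Ccl2 was at 0 in 20 of 28 control sums and reached 129 CPM in the highest. Its largest HFD value was 116 in the 16-week sum of L4 on plate 3, where 24 UMIs came from 67 cells and the highest cell held 8. In 8 of the 10 sums of 16 weeks no Ccl2 UMI was found.

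Among the cytokines, Il1a was found in 27 of 28 control sums, at 0 to 362 CPM (median 69.8). Its 1-day replicates were at 82.7 to 140 (median 117), its 3-day sums at 27.1 to 165 (median 61.5) and its 9-week sums at 42.6 to 112 (median 93.9). Within plates its mean was higher than control on 2 of 2 plates at 1 day and lower on 3 of 3 at 9 weeks, with control and HFD sums overlapping on each of these plates. It was also lower on 2 of 2 plates at 4 weeks and on 3 of 4 at 1 week. These 3 plates of 1 week held 1 control sum each. Plates 7 and 9 also held 1 HFD sum each, so the groups could not overlap there, and the control sum of plate 4 had 7 cells. Il1b was at 0 in 21 of 28 control sums and in all 6 sums of 1 day. Its highest value, 322 CPM in the control sum of MG M2 on plate 12, came from 1 cell with 16 UMIs. Tnf had a control median of 0 (highest 54.4), with 15 of 28 sums at 0. Il6 had a control median of 19.0 (highest 88.9) and a 16-week median of 24.4 (highest 68.1), but within plates its 16-week mean was lower on 4 of 6 and higher on 2. Tnf and Il6 both had lower means than control on 3 of 3 plates at 9 weeks, from 2 UMIs of Tnf and 5 of Il6 in all 9-week sums.

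The sums of each HFD length were compared with control by edgeR's quasi-likelihood test with plate as a block and Benjamini-Hochberg adjustment. The standard errors (SE) given below were worked back from that test. Each is the size of the log2 fold change divided by the square root of the F statistic, so they are approximate. Only Ccl12 and Nfkbia of the 10 members passed the filter on low counts, a count that cannot speak for the others. At an adjusted p under 0.05 the test called 0 of 2336 genes (0%), and 0 of the 2 members, at 1 day, 3 days, 1 week, 4 weeks, 9 weeks and 16 weeks, and likewise between 1 week and 3 days. At an unadjusted p under 0.05 it held 114 genes (4.88%) at 1 day, 109 (4.67%) at 3 days, 98 (4.2%) at 1 week, 96 (4.11%) at 4 weeks, 148 (6.34%) at 9 weeks, 111 (4.75%) at 16 weeks and 108 (4.62%) between 1 week and 3 days. DESeq2 called 0 genes except 1 at 9 weeks, which was not a member, and at an unadjusted p under 0.05 it held 112, 97, 95, 95, 146, 115 and 108 genes in the same order. The 6 comparisons share their control sums, and replicates sorted on several plates enter as several sums, so the p-values may be too small.

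Ccl12 came nearest to a call. Its log2 fold change against control was −2.22 (SE 0.61) at 4 weeks, with an adjusted p of 0.268 by edgeR, −1.14 (SE 0.51) at 3 days with an adjusted p of 0.989, and −1.04 (SE 0.46) at 1 week with an adjusted p of 0.999. It was −0.23 (SE 0.72) at 1 day, −0.56 (SE 0.62) at 9 weeks and 0.35 (SE 0.38) at 16 weeks. Ccl12 passed the threshold at 4 weeks in 3 other fits. With no filter on low counts the change was −2.14 (edgeR adjusted p = 3.4e-04), among 12 of 17280 genes called (0.0694%), of which 5 were lower (0.0289%). With sums per replicate over linked plates it was −2.23 (adjusted p = 0.0308), among 7 of 4226 genes (0.166%), 2 lower (0.0473%). With sums per diet and length on each plate it was −2.18 (adjusted p = 0.0298), among 8 of 5359 genes (0.149%), 2 lower (0.0373%). Without the cells that carried other cell types' markers it was −1.62 with an adjusted p of 0.930. Over all other settings, left-out replicates aside, the adjusted p ran from 3.4e-04 to 0.992. Only plate 1 held more than 7 control cells beside 4-week cells.

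Nfkbia differed from control by a log2 fold change of 0.18 (SE 0.37) at 1 day, −0.80 (SE 0.42) at 3 days, −0.10 (SE 0.36) at 1 week, 0.63 (SE 0.39) at 4 weeks, 0.30 (SE 0.33) at 9 weeks and 0.27 (SE 0.25) at 16 weeks. The smallest adjusted p of the 6 was 0.937. The 4-week value turned to −0.14 without the cells carrying other types' markers, which include the cell of 39 UMIs. Between 1 week and 3 days Nfkbia differed by 0.70 (SE 0.42) and Ccl12 by 0.09 (SE 0.52), with an adjusted p of 0.997 for each.

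**Figure D5:**
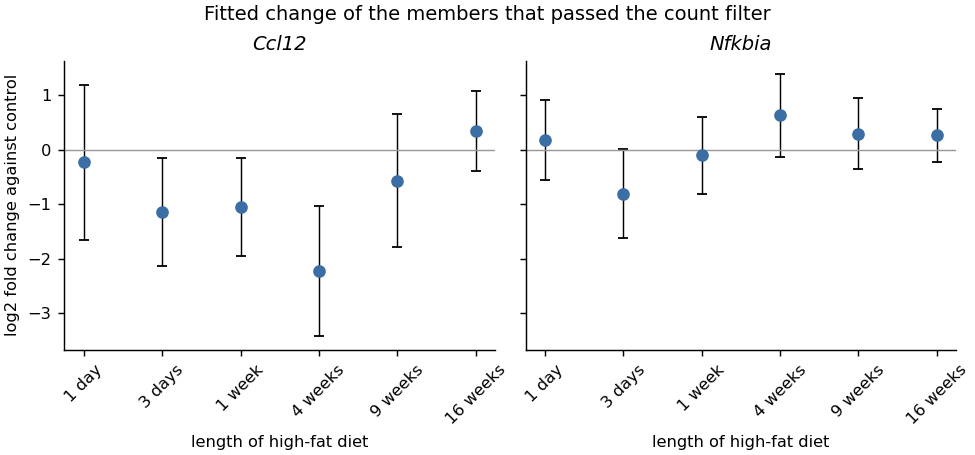
Log2 fold change of Ccl12 and Nfkbia against control at each HFD length, from edgeR's quasi-likelihood fit with plate as a block. Bars mark approximate 95% intervals, worked back from the F statistic of the test. Ccl12 lies furthest from 0 at 4 weeks (−2.22), and no value passed the threshold after adjustment over 2336 genes.

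The other 8 members had too few UMIs for the filtered fit, and the unfiltered fit gives their values over all 17280 genes. Of these, 0 were called at 1 day (0%), 6 at 3 days (0.0347%), 6 at 1 week (0.0347%), 12 at 4 weeks (0.0694%), 4 at 9 weeks (0.0231%), 4 at 16 weeks (0.0231%) and 0 between 1 week and 3 days (0%). In it Ccl3 had log2 fold changes of −1.65 (SE 0.55) at 1 day, −2.05 (SE 0.88) at 3 days and 1.62 (SE 0.53) at 1 week, with adjusted p of 0.776, 0.786 and 0.942 by edgeR. The 1-week value includes the cell of MG M13 with 21 UMIs. Among the control sums beside those of 1 day, that of WT M13 includes a cell with 22. After 3 days the mean of Ccl3 was lower than control on neither of the 2 plates that held both. The direct comparison of 1 week with 3 days gave 3.67 for Ccl3 (SE 0.80, adjusted p = 0.0862) and 1.89 for Ccl4 (SE 0.96, adjusted p = 0.857). The same cell of MG M13 held 21 of the 30 Ccl3 UMIs and 11 of the 13 Ccl4 UMIs of 1 week. Il1b was at 2.35 (SE 1.09) at 4 weeks and −2.17 (SE 1.05) at 9 weeks, from 7 UMIs and 1 UMI. Of the 22 cells with Il1b over all diets, 4 (18.2%) carried markers of other cell types, against 3.64% of the cells without it. Against control, Il1a lay between −0.42 (1 week) and 0.49 (1 day), and Nfkbiz between −0.38 (1 week) and 0.68 (3 days). Between 1 week and 3 days they were at −0.76 (SE 0.45) and −1.07 (SE 0.56), with an adjusted p of 0.857 each. Fold changes of genes at 0 in most sums depend on the fit's prior count. Apart from Ccl12 at 4 weeks, no member reached an adjusted p of 0.05 at any length in this fit.

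The wider pathway gave the same count. Of 76 further genes in 6 lists, 68 were in the tables and 29 passed the filter, and 0 of the 29 were called at any length or between 1 week and 3 days (background 0%). At an unadjusted p under 0.05, 0 were higher and 0 lower at 1 day, 0 and 1 at 3 days, 4 and 0 at 1 week, 0 and 0 at 4 weeks, 1 and 3 at 9 weeks, and 1 and 4 at 16 weeks, beside the shares of 4.88%, 4.67%, 4.2%, 4.11%, 6.34% and 4.75% over all 2336 genes. The 2 other chemokine genes tested, Ccl6 and Ccl9, were among those higher at 1 week, with log2 fold changes of 0.83 (SE 0.35) and 1.02 (SE 0.37) and an adjusted p of 0.999 each. They are named after their values were seen. At 1 day, 3 days, 1 week, 4 weeks, 9 weeks and 16 weeks, values below 0 were found for 3, 4, 4, 4, 2 and 2 of the 4 tested genes for NF-κB subunits and kinases. For the 2 tested genes listed as inhibitors of NF-κB, Cyld and Tnfaip8l2, they were found for 1, 1, 1, 1, 1 and 2. For the 3 tested cytokine and enzyme genes (Il16, Tgfb1 and Casp1) the counts were 2, 2, 1, 2, 1 and 3. For the 9 tested immediate early genes they were 7, 4, 2, 6, 7 and 9, with a median of −0.35 at 16 weeks, where 2 of them were at an unadjusted p under 0.05. The median over all 2336 genes lay between −0.011 and 0.0099 at the 6 lengths. The lengths share their control sums, so signs that recur over them are not independent.

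Over the 68 sums, the gene whose level was most like that of Ccl3 and of Ccl4 by Pearson's r, among the 2336 genes tested, was Egr1, an immediate early transcription factor (r = 0.46 and 0.51). Without the 2 sums farthest from the median, r was 0.30 and 0.41, and for Ccl3 it was then below that of Dock4 (0.37) and Knop1 (0.33). By Spearman's rho Egr1 (0.35) was below Tnfaip8 (0.43), Bzw1 (0.42) and Ube2l3 (0.38) for Ccl4. The next for Ccl3 were Knop1 (0.41), Ubp1 (0.38), H2-Ab1 (0.36) and Dock4 (0.35), and for Ccl4 Bzw1 (0.39), Ube2l3 (0.38), Secisbp2l (0.36) and Tnfaip8 (0.35). The sums share plates, replicates and depth, so these values are a description.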

How the data were processed

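The submitters' processing notes name FastQC, STAR and featureCounts and the build mm10, without versions. The authors deposited, per plate, an estimated count per gene in every well, without normalization, in which the UMIs seen were corrected for tags drawn more than once. Turned back into UMIs (4096 possible tags), 100% of the nonzero values came within 0.001 of a whole number. A table of wells gave the diet, length and replicate of each cell. In the filtered table, 34 columns with single names, whose start no other column shares, were not used. Doublets were not called, because each well received 1 sorted cell.

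Cells had at least 1500 transcripts over 17280 genes, and thinning drew 1500 UMIs per cell. Counts were summed by replicate and plate (at least 5 cells), rounded and fitted in edgeR 4.0.16 (R 4.3.3, TMM, filterByExpr defaults, quasi-likelihood test, plate as a block, all lengths in 1 fit), with a threshold of 0.05 after Benjamini-Hochberg adjustment. DESeq2 1.42.0 and limma 3.58.1 served in alternatives, and Python 3.11.15 with pandas 2.3.3, numpy 2.4.6, scipy 1.17.1 and matplotlib 3.10.9 in the rest. The fit was tested on simulated data, drawn independently for each sum from fitted means and spreads. The simulated sums held no replicates repeated over plates, and the outcome is not given here. Depth limits precision: the sums held 22768 to 219146 transcripts. The labels do not say that replicates came from separate mice, so p-values measure only the spread between these sums. The alternatives changed the tool, size factors, filters, block, unit of summing, cells used and thinning, and left out each replicate in turn. The members, gene lists and tests were chosen with earlier results of these data known. Named genes were the 10 members, other pathway genes with an adjusted p under 0.05, and the 5 genes most like Ccl3 and Ccl4. Other genes were named after their values were seen. The list of receptor genes is not reported on its own here.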

Additional observations from a re-analysis of the deposited data

Results flagged for a closer look

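Replicates of 1 HFD length were compared with each other by Dixon's test (95% critical value) wherever a length had 4 to 10 replicates. Of 40 groups, 12 had a replicate that stood apart, and 5 of the 12 rest on 1 UMI. The rate of about 1 group in 20 by chance does not hold for such sparse counts, since a single value above 0 stands apart by construction when the other replicates are at 0.

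Among the chemokines, Ccl3 stood highest in MG M13 after 1 week (681 CPM) and in WT M16 after 1 day (140 CPM), and MG M13 was also highest for Ccl4 (356 CPM). Without the highest cell of each, Ccl3 was at 0 and 39.6, and Ccl4 in MG M13 was at 0. Ccl3 after 3 days was at 27.1 in MG M17 and at 0 in the other 3. Ccl2 after 16 weeks was highest in L4 (66.8), and Ccl12 after 16 weeks was lowest in MG M9 (26.8).

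Among the cytokines, Il1b was highest in MG M18 after 3 days (47.7) and in MG M13 after 1 week (32.3). Tnf was highest in WT M14 after 1 day (13.8), in MG M24 after 3 days (6.09) and in MG M10 after 16 weeks (43.9). Nfkbia after 1 day was lowest in WT M6 (101).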

How the results depend on the processing

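Under 15 other settings and 44 left-out replicates, 399 counts of members called were at 0 as reported, and 3 were at 1, each for lower Ccl12 at 4 weeks: with no filter on low counts, with sums per replicate over linked plates, and with sums per diet and length on each plate. Leaving out any replicate gave 0 members called in each comparison. The cause was not tested.

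The share of Ccl3 cells with Ccl4 was 35.7% and that of Ccl4 cells with Ccl3 55.6% when at least 2 UMIs were asked of each gene after thinning. Few cells held 2 or more UMIs of both genes even at full depth, so these shares rest on few cells and on a single draw.

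The sign of the log2 fold change turned in 13 of 180 values. For Nfkbia at 1 week it was 0.034 by DESeq2, 0.22 with only the groups compared on plates with both, and 0.077 without cells carrying other markers, where Nfkbia at 4 weeks was −0.14. With no plate block Ccl12 was 0.014 at 1 week and −0.061 at 16 weeks. With at least 3000 transcripts per cell Ccl12 was 0.48 and Nfkbia −1.98 at 1 day, and Nfkbia −0.13 at 16 weeks. Ccl12 between 1 week and 3 days was −0.036 with no filter, −0.023 with sums per diet, −0.13 by voom with the replicate as a random effect, and −0.30 with at least 10 cells per sum. At 3 days Ccl12 kept its sign against control, but ran from −1.53 to −0.18 over the other settings, left-out replicates aside.

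With each replicate left out in turn, Ccl12 ran from −0.52 to 0.074 at 1 day, from −1.41 to 0.068 at 9 weeks and from −0.21 to 0.33 between 1 week and 3 days, and Nfkbia from −0.28 to 0.12 at 1 week and from −0.054 to 0.58 at 16 weeks. At 4 weeks Ccl12 ran from −2.55 to −2.0 (edgeR adjusted p from 0.131 to 0.607). Over all genes, the fit with no plate block called 3, 29, 16, 23, 0 and 1 genes at the 6 lengths, and that with no filter 0, 6, 6, 12, 4 and 4. The settings for plate 13 and for plates 4, 5, 10 and 11 were added after the data were seen. Plate, on which control and HFD replicates lie together, was the block of the reported fit. No paired analysis was possible because no replicate identifier is shared between diets. Rare members are limited by depth: 8 of the 10 had too few UMIs for the filtered fit.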
